A study of Mus musculus with 7 samples.

Results

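The 10 genes described here encode the killing machinery and identity markers of natural killer (NK) cells and cytotoxic T cells: the granule proteins Gzma, Gzmb, Prf1 and Nkg7, the surface receptors Ncr1, Klrb1c, Klrk1 and Klrd1, the transcription factor Eomes and the cytokine receptor chain Il2rb. They were taken by symbol from a table of 17920 genes, and all 10 were found. Each had a mean above the minimum of 1 FPKM (fragments per kilobase of RNA, relative to the fragments mapped in the library) over the 7 libraries, so all 10 were among the 11378 genes tested.

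The series asked how loss of GdX (UBL4A), an X-linked ubiquitin-like protein that helps deliver tail-anchored proteins to membranes, alters RNA levels in mouse spleen after lipopolysaccharide (LPS), a bacterial product that activates innate immune cells. Mice were 8 weeks old and labelled C57BL/6, and all of them received 20 mg/kg LPS into the peritoneum. There were 2 wild-type and 2 GdX-deficient libraries from 90 min after the injection, and 2 wild-type libraries and 1 GdX-deficient library from 6 h. The deficient genotype is written GdX-/- in one label and GdX-/Y in others, and how the allele was made was not given in the sources used here. The source is labelled splenocytes, but the protocol describes whole crushed spleen, from which no NK cell was sorted. Spleen without LPS was not analysed here, and the levels before the injection are therefore unknown.

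NK cells kill target cells by releasing granules in which perforin opens membranes to granzymes, which then trigger apoptosis. Their response is set by a balance of activating receptors such as NKp46 and NKG2D and inhibitory ones such as the CD94-NKG2A pair, and by cytokines, above all IL-12, IL-15 and IL-18 from macrophages and dendritic cells. After LPS these cytokines drive NK cells to make interferon gamma, and activated NK cells are known to make more granzyme B protein from RNA they already hold. CD8 T cells share granzymes, perforin, Nkg7, Klrk1, Klrd1, Eomes and Il2rb with NK cells, so none of these alone marks 1 cell type. In bulk spleen, fewer cells of a type and less RNA per cell cannot be told apart.

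The stretch before the start site is shown for 4 members, 2 receptor genes and the 2 granzymes, because in wild-type spleen both libraries at 6 h were below both at 90 min for the receptor genes and above them for the granzymes. Windows from RefSeq (GRCm38.p6) were matched by symbol for 8 of the 10 members, and the 250 bases before the start were read from them. The coordinates are chr7:4337465-4337714 (plus strand) for Ncr1, chr6:128788642-128788891 (minus strand) for Klrb1c, chr13:113100982-113101231 (minus strand) for Gzma and chr14:56262335-56262584 (minus strand) for Gzmb. Each is written 5′ to 3′ on the strand of the gene, and capitals mark matches on either strand to the core of a T-box (AGGTGT), RUNX (TGTGGT), ETS (AGGAAG), STAT (TTCNNNGAA) or AP-1 (TGANTCA) site.
Ncr1: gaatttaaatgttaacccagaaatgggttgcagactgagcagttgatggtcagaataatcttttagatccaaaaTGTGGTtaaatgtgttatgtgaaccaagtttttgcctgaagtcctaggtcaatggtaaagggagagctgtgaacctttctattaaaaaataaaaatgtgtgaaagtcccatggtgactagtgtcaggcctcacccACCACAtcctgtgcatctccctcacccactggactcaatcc
Klrb1c: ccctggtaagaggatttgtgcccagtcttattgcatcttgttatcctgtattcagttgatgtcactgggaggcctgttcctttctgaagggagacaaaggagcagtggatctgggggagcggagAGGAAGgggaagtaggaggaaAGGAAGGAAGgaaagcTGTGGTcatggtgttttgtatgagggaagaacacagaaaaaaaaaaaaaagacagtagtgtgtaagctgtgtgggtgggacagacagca
Gzma: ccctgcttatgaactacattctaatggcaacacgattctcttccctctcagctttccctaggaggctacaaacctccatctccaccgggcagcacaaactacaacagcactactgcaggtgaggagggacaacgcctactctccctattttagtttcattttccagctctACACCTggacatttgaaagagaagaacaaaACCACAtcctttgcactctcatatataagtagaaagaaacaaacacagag
Gzmb: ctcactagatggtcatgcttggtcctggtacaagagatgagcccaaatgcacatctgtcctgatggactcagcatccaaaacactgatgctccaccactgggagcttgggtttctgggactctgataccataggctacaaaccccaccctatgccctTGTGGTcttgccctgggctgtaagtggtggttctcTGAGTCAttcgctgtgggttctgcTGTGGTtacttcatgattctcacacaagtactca
Ncr1 has 2 listed starts, and the window before the upstream one is shown. Counted from this start, Ncr1 has RUNX letters at -176 to -171 and -41 to -36, which lie at -185 to -180 and -50 to -45 from the downstream start. The bases after the downstream start, but not those after the upstream one, were found in a GENCODE transcript of the gene. The bases after the Gzmb start were not found in one either, nor were those after the starts of Prf1 and Eomes, which are in the counts below. Positions and counts therefore hold for the RefSeq starts only. Klrb1c has RUNX letters at -89 to -84 after 3 ETS matches, of which the pair at -105 to -100 and -101 to -96 overlaps. Gzma has T-box letters at -80 to -75 and RUNX letters at -50 to -45, while Gzmb has RUNX letters at -93 to -88 and -34 to -29 around AP-1 letters at -58 to -52. RUNX letters were in the window of 7 of the 8 members and in 14% of the windows of this length before all 32817 RefSeq starts. T-box letters were in 3 of the 8 (11.8% of all windows), ETS letters in 3 (29.5%), STAT letters in 1 (7.01%) and AP-1 letters in 1 (6.75%). A match is a description of the letters, and no factor binding was measured.

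The members spanned a wide range of levels. In wild-type spleen at 90 min Gzma was the most abundant at 97.6 ± 12.5 FPKM (SD, n = 2), followed by Gzmb at 51.6 ± 19.1 and Nkg7 at 42.9 ± 1.17 FPKM (SD, n = 2 each). Klrd1 (25.4 ± 4.43 FPKM) and Il2rb (24.1 ± 6.05 FPKM) did not differ beyond their SD (n = 2 each), nor did Prf1 (10.5 ± 2.43 FPKM), Klrk1 (9.66 ± 2.16 FPKM) and Klrb1c (8.73 ± 1.37 FPKM). Eomes stood at 6.11 ± 1.97 and Ncr1 lowest at 3.2 ± 0.467 FPKM (SD, n = 2 each). The estimated depth was 18100000 to 19900000 fragments in each library, read from the smallest step in the FPKM values. At this depth Ncr1 rested on about 59 fragments in its lowest library, and Il2rb on about 5037 in its highest.

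**Figure D1:**
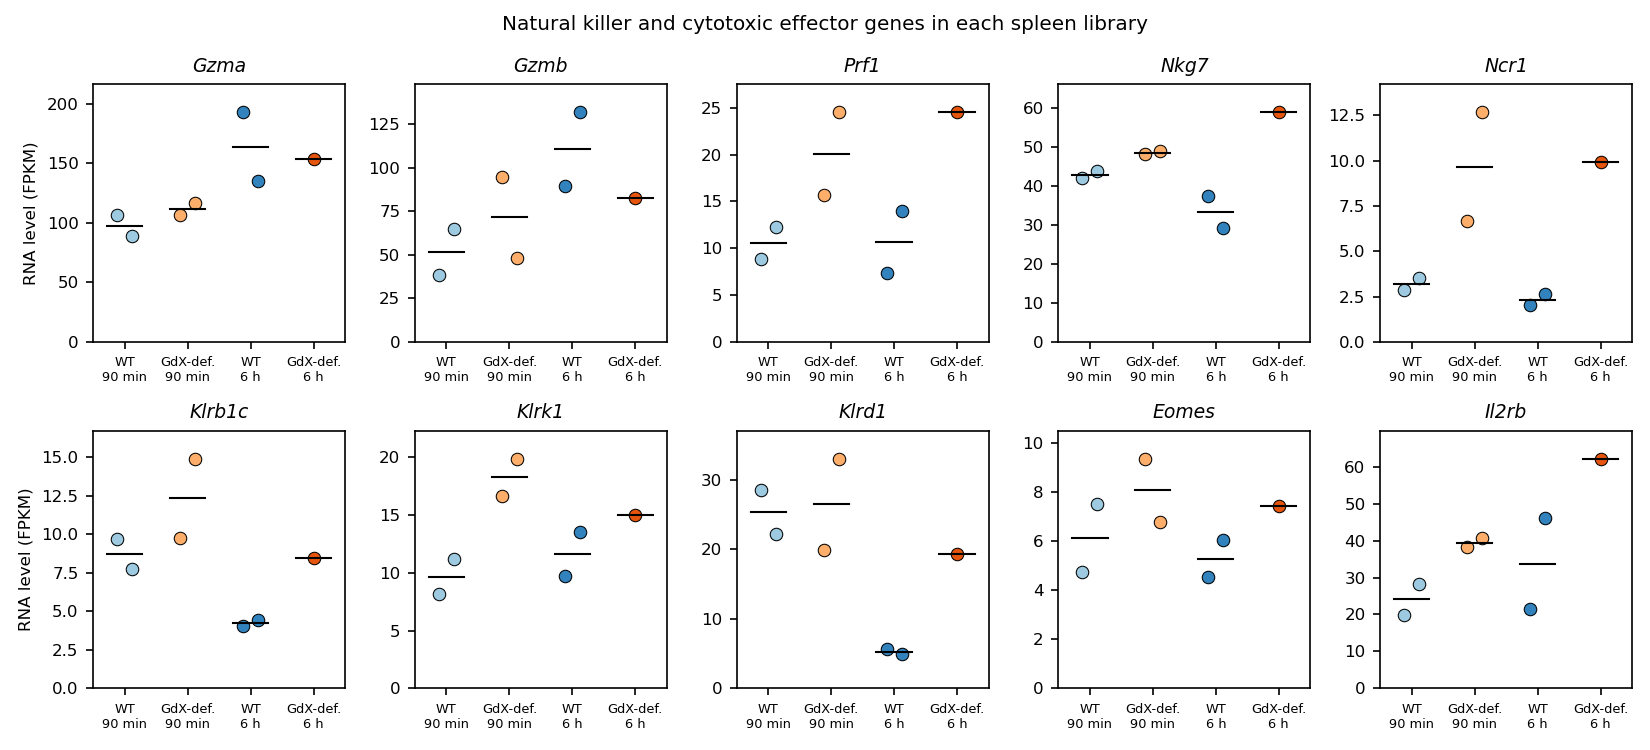
RNA level (FPKM, linear axis from 0) of the 10 genes in each of the 7 spleen libraries, by genotype and time after LPS. Points are libraries and the horizontal bars are group means (n = 2, and n = 1 for GdX-deficient at 6 h). The 2 wild-type 6 h libraries are lowest for Klrd1, Klrb1c and Ncr1 and above both wild-type 90 min libraries for Gzma and Gzmb.

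Several checks of the libraries bear on what follows. The targeted gene Ubl4a stood at 4.03 to 10.56 FPKM in the GdX-deficient and 5.62 to 14.01 FPKM in the wild-type libraries, but the overlapping entry Gm44504 stood at 0.66 to 1.86 against 14.52 to 51.10 FPKM. How fragments were divided between these entries was not given in the sources used here. Summed FPKM of 10 T cell markers was 195 and 223 in the wild-type 6 h libraries against 364 to 468 in the other 5, and that of 8 B cell markers was 529 and 596 against 1360 to 2274. Neutrophil markers (7 genes) summed to 4691 FPKM in GdX-deficient replicate 2 at 90 min and 2543 in the GdX-deficient 6 h library, against 672 to 1063 in the other 5. None of these markers was at 0 in any library. The labels do not say more than that the libraries come from 4 wild-type and 3 GdX-deficient mice, and p-values measure the spread between these libraries only.

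The first comparison asked how the genes differed between 90 min and 6 h after LPS in wild-type spleen. Klrd1, which encodes CD94, the partner chain of the NKG2 receptors, fell. Gzma and Gzmb, the serine proteases of the killing granule, had higher levels at 6 h in both libraries without passing the test. Of the 10 members 1 passed, and it was lower, where 10.7% of all genes tested passed, 4.39% higher and 6.32% lower. The median log2 fold change of the members was -0.10, against 0.05 over all genes tested.

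Among the receptors, Klrd1 stood at 28.52 and 22.25 FPKM at 90 min, and the 6 h libraries gave 5.60 and 4.90 FPKM. The 6 h libraries lie far below the 90 min ones, close to each other. The mean at 90 min was 4.84-fold that at 6 h, and the log2 fold change of FPKM + 1 was -2.07 (SE 0.32, adjusted p in limma = 0.00646). Klrb1c encodes NK1.1, the antigen by which NK cells are recognized in C57BL/6 mice. Its level was 9.70 and 7.76 FPKM at the earlier time and 4.05 and 4.45 FPKM at the later. These libraries do not overlap either, but the log2 fold change of -0.88 (SE 0.31, adjusted p in limma = 0.101) did not pass. Klrb1c has close copies in the same gene cluster on chromosome 6, and how fragments shared with them were assigned was not given in the sources used here. Ncr1, which encodes the activating receptor NKp46, stood at 2.87 and 3.53 FPKM early and at 2.02 and 2.64 FPKM late. Its libraries are lower at 6 h by less than the test could separate (log2 fold change -0.34, SE 0.35, adjusted p in limma = 0.567). Klrk1, which encodes the activating receptor NKG2D, stood at 8.13 and 11.18 FPKM and then at 9.76 and 13.52 FPKM. Its 2 times overlap, and the 95% interval of its log2 fold change ran from -0.44 to 0.93.

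The granule genes differed among themselves. Gzma, a tryptase-like granzyme, gave 106.47 and 88.78 FPKM at the earlier time and 192.95 and 134.69 FPKM at the later, and both 6 h libraries are above both earlier ones. Its mean was 1.68-fold higher, with a log2 fold change of 0.72 (SE 0.27, adjusted p in limma = 0.112). Gzmb, the granzyme that cleaves caspases in the target cell, stood at 38.17 and 65.12 FPKM and then at 89.39 and 132.04 FPKM. Its libraries do not overlap between the times, and its mean was 2.14-fold higher (log2 fold change 1.11, SE 0.39, adjusted p in limma = 0.0971). Prf1, which encodes perforin, stood at 8.82 and 12.26 FPKM and then at 7.36 and 13.96 FPKM. The times overlap for Prf1, and its log2 fold change was -0.03 with a 95% interval from -0.86 to 0.80. Nkg7, a granule membrane protein needed for granule release, stood at 42.06 and 43.71 FPKM and then at 37.45 and 29.30 FPKM. Its 6 h libraries are both lower, at a log2 fold change of -0.36 (SE 0.25, adjusted p in limma = 0.369).

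Of the other members, Eomes, the T-box factor that NK cells need to mature, stood at 4.72 and 7.50 FPKM early and at 4.54 and 6.02 FPKM late. Il2rb, the receptor chain that IL-2 and IL-15 share, stood at 19.80 and 28.36 FPKM and then at 21.50 and 46.01 FPKM. Both overlap between the times, with log2 fold changes of -0.16 (95% interval -0.90 to 0.58) and 0.40 (95% interval -0.42 to 1.21). Across the members, 4 had both 6 h libraries below both 90 min ones (Nkg7, Ncr1, Klrb1c and Klrd1), where 27.6% of all genes did, and 2 had both above (Gzma and Gzmb), where 30.3% did.

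In GdX-deficient spleen the single 6 h library was set against the pair at 90 min, with the spread taken from the groups of 2. Klrd1 stood at 19.86 and 33.07 FPKM in the early pair and at 19.39 FPKM later, so the 6 h library lies just under the lower of the pair. Its log2 fold change was -0.39 (SE 0.39, adjusted p in limma = 0.82). No member passed (0% of all genes did), none had an unadjusted limma p under 0.05, and the log2 fold changes ran from -0.47 for Klrb1c to 0.65 for Il2rb. Over all genes, 910 had an unadjusted limma p under 0.05. The members' median was 0.19, against 0.25 over all genes tested.

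**Figure D2:**
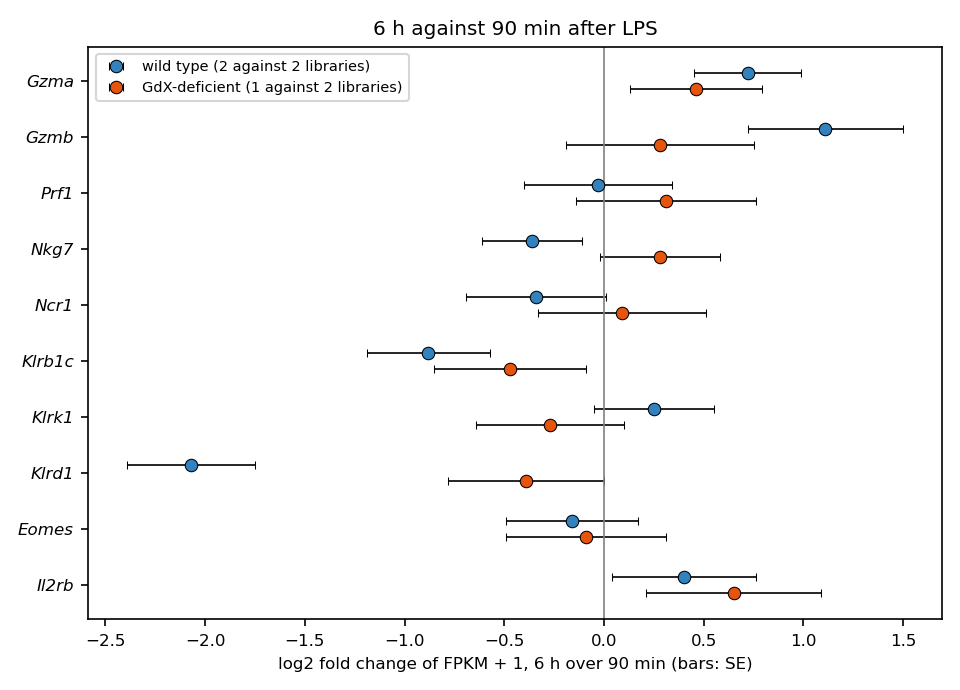
Log2 fold change of FPKM + 1 between 6 h and 90 min after LPS for the 10 genes, in wild type (2 against 2 libraries) and in GdX-deficient spleen (1 against 2). Bars are the standard errors from limma. Klrd1 in wild type is farthest from 0, at -2.07, and the other 9 genes lie between -0.88 and 1.11.

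Genotype was compared next, first at 90 min, where each side has 2 libraries. Ncr1, Prf1, Klrk1 and Il2rb had the highest levels in the GdX-deficient libraries relative to wild type, at 3.02, 1.91, 1.89 and 1.64 times the wild-type mean. None of the 10 passed the threshold in limma (0.0176% of all genes tested did, 2 genes in all), and 3 had an unadjusted p under 0.05 (Prf1, Ncr1 and Klrk1), where 862 of all 11378 genes did. All 10 log2 fold changes were above 0, with a median of 0.43 against 0.07 over all genes.

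For Ncr1 at 90 min the wild-type libraries gave 2.87 and 3.53 FPKM and the deficient ones 6.65 and 12.68 FPKM. The deficient libraries are both above the wild-type ones but far from each other, and the log2 fold change was 1.29 (SE 0.35, adjusted p in limma = 0.52). Ncr1 passed when the 90 min libraries were fitted alone (limma adjusted p = 0.0487, with 181 genes called), and without either wild-type 6 h library (0.0488 without replicate 1, with 173 genes called, and 0.0487 without replicate 2, with 183). Prf1 stood at 8.82 and 12.26 against 15.65 and 24.56 FPKM. Again the higher deficient value is in replicate 2, and the log2 fold change of 0.85 (SE 0.37, adjusted p in limma = 0.621) did not pass. Klrk1 stood at 8.13 and 11.18 against 16.63 and 19.90 FPKM, a log2 fold change of 0.86 (SE 0.30, adjusted p in limma = 0.603). For Il2rb the wild-type libraries stood at 19.80 and 28.36 and the deficient ones at 38.24 and 40.60 FPKM, a log2 fold change of 0.71 (SE 0.36, adjusted p in limma = 0.621). Klrk1 and Il2rb differ from Ncr1 and Prf1 in that their deficient libraries lie close together.

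The remaining members differed less at 90 min. Nkg7 stood at 48.05 and 48.81 FPKM in the deficient libraries, just above the wild-type pair, with a log2 fold change of 0.17 (95% interval -0.38 to 0.73). Klrb1c stood at 9.74 and 14.91 FPKM, of which the lower lies just above the higher wild-type library (9.70 FPKM). Gzma (106.20 and 116.39 FPKM), Gzmb (94.90 and 48.00), Eomes (9.35 and 6.78) and Klrd1 (19.86 and 33.07) overlapped with wild type. The interval for Klrd1 ran from -0.69 to 0.74 on the log2 scale. In all, 6 of 10 members had every deficient library above every wild-type one (Prf1, Nkg7, Ncr1, Klrb1c, Klrk1 and Il2rb), where 24.1% of all genes did. For Prf1, Ncr1, Klrb1c, Klrk1, Klrd1, Nkg7, Il2rb and Gzma the higher deficient value is that of replicate 2, the library with neutrophil markers summing to 4691 FPKM, and the part of those cells in these values was not tested.

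**Figure D3:**
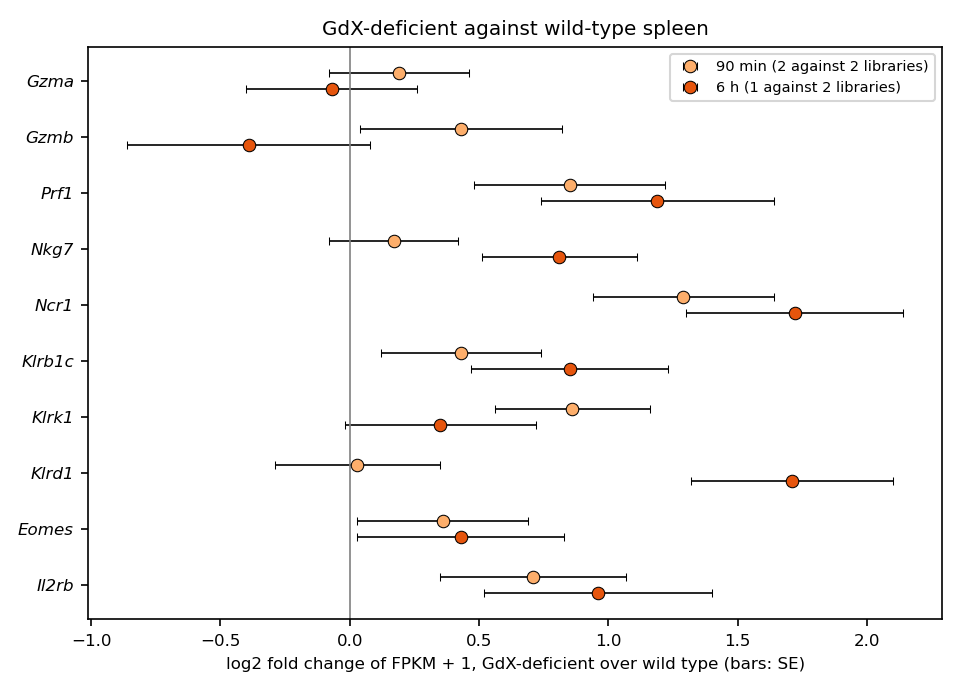
Log2 fold change of FPKM + 1 between GdX-deficient and wild-type spleen for the 10 genes, at 90 min (2 against 2 libraries) and at 6 h (1 against 2). Bars are the standard errors from limma. Klrd1 is near 0 at 90 min (0.03) and at 1.71 at 6 h, while Gzma and Gzmb are below 0 at 6 h.

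At 6 h the GdX-deficient side is 1 library, which was assumed to vary like the groups of 2. Klrd1 was higher in it, and it was the 1 member of 10 that passed, where 3.96% of all genes tested passed, 2.91% higher and 1.05% lower (331 and 119 genes, or 166 and 104 with quantile normalization). Its level was 19.39 FPKM, with 5.60 and 4.90 FPKM in the wild-type libraries. The deficient library is 3.69 times the wild-type mean and close to the levels at 90 min, and the log2 fold change was 1.71 (SE 0.39, adjusted p in limma = 0.0463). This call was lost with quantile normalization, at a log2 fold change of 1.36 (limma adjusted p = 0.0909), and in 3 other settings with adjusted p from 0.0513 to 0.0981.

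Ncr1 reached 9.91 FPKM in the deficient library, with 2.02 and 2.64 FPKM in the wild-type ones, 4.25 times the mean. The wild-type pair is close together and well below it, but the log2 fold change of 1.72 (SE 0.42, adjusted p in limma = 0.0545) missed the threshold. It passed in 9 of the 14 other settings (adjusted p from 0.00687 to 0.118 over all 14), and in those 9 between 627 and 3383 of all genes were called, against 450. Prf1 stood at 24.54 against 7.36 and 13.96 FPKM (1.19 on the log2 scale, SE 0.45, adjusted p in limma = 0.127), and Il2rb at 62.23 against 21.50 and 46.01 FPKM (0.96, SE 0.44, adjusted p in limma = 0.189). Both wild-type pairs are wide, and replicate 2 is the higher for both genes. Without that replicate Prf1 (1.61, limma adjusted p = 0.0105) and Il2rb (1.49, limma adjusted p = 0.00821) passed, where 26.7% of all genes did, and without replicate 1 they stood at 0.77 and 0.43. Nkg7 stood at 58.90 against 37.45 and 29.30 FPKM, a log2 fold change of 0.81 (SE 0.30, adjusted p in limma = 0.124). Klrb1c stood at 8.46 FPKM against 4.05 and 4.45 FPKM, a log2 fold change of 0.85 (SE 0.38, adjusted p in limma = 0.181).

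The other 4 members lay nearer to wild type at 6 h. Klrk1 stood at 14.97 against 9.76 and 13.52 FPKM and Eomes at 7.43 against 4.54 and 6.02 FPKM, both above the wild-type pair. Gzma stood at 153.14 FPKM, between the wild-type values of 192.95 and 134.69. Gzmb stood at 82.40 FPKM, below both wild-type libraries (89.39 and 132.04), and its 95% interval ran from -1.46 to 0.67 on the log2 scale. With these, 8 of 10 members had the deficient library above both wild-type ones, where 54.9% of all genes did, and the members' median was 0.83 against 0.32 over all genes. With quantile normalization the median of all genes was -0.02, and Gzma (0.26) and Eomes (-0.08) changed sign, in opposite directions. In that setting the log2 fold change of Klrb1c was 0.32, that of Klrk1 0.02 and that of Ncr1 1.16. In the same deficient library the T cell markers summed to 385 FPKM and the B cell markers to 1941 FPKM, against 195 to 223 and 529 to 596 FPKM in wild type at 6 h. The part of cell composition in the members' values was not tested.

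Whether the genotype effect differed between the times was tested as an interaction. No member passed in limma (0.0703% of all genes did, 4 higher and 4 lower, or 0 and 4 with quantile normalization), and Klrd1 alone of the 10 had an unadjusted p under 0.05, where 1136 of all genes did. Its difference of the 2 genotype effects was 1.68 (SE 0.50, 95% interval 0.56 to 2.81, adjusted p in limma = 0.263). For Nkg7, whose log2 fold change over time was -0.36 in wild type and 0.28 in GdX-deficient spleen, the difference was 0.64 (SE 0.39, adjusted p in limma = 0.676).

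With both times in 1 fit and time as a covariate, 3 GdX-deficient libraries were set against 4 wild-type ones. Ncr1 had a log2 fold change of 1.46 (SE 0.27, adjusted p in limma = 0.0915), Prf1 0.99 (SE 0.28, adjusted p in limma = 0.104) and Il2rb 0.81 (SE 0.27, adjusted p in limma = 0.118). No member passed, where 0.0439% of all genes did (0.0352% higher and 0.00879% lower), and 5 had an unadjusted limma p under 0.05 (Prf1, Ncr1, Klrb1c, Klrk1 and Il2rb), where 3071 of all genes did. At both times, 6 of 10 members had every deficient library above every wild-type library of that time (Prf1, Nkg7, Ncr1, Klrb1c, Klrk1 and Il2rb), where 19.0% of all genes did. None was below at both times, where 13.0% of all genes were. Over all 7 libraries regardless of time, Prf1, Nkg7, Ncr1 and Klrk1 had every deficient library above every wild-type one, where 10.2% of all genes did. The log2 fold changes of the granzymes were 0.09 for Gzma and 0.10 for Gzmb, with 95% intervals from -0.38 to 0.55 and from -0.59 to 0.79. Without GdX-deficient replicate 1 at 90 min, Ncr1 (limma adjusted p = 0.0117) and Prf1 (limma adjusted p = 0.035) passed, where 1674 of all genes (14.7%) did. Without wild-type replicate 2 at 90 min Ncr1 passed (limma adjusted p = 0.0333), where 242 of all genes (2.13%) did.

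The same 7 libraries gave time with genotype as a covariate, 3 libraries at 6 h against 4 at 90 min. Klrd1 was lower at 6 h (log2 fold change -1.40, SE 0.35, adjusted p in limma = 0.0449), the 1 member of 10 that passed, where 5.44% of all genes did, 2.79% higher and 2.65% lower (318 and 301 genes, or 305 and 578 with quantile normalization). Leaving out GdX-deficient replicate 2 at 90 min or any 1 of the 4 wild-type libraries ended this call, with adjusted p from 0.0787 to 0.158. Klrb1c (-0.72, SE 0.25, adjusted p in limma = 0.099) and Gzma (0.62, SE 0.21, adjusted p in limma = 0.1) had the next smallest p.

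How the members varied together over the 7 libraries was described with the mean of their centred log2 values, which was highest in the GdX-deficient libraries (0.42 at 6 h, 0.24 and 0.42 at 90 min) and lowest in wild type at 6 h (-0.47 and -0.21). Each member is part of this mean. Ncr1 followed it most closely (Pearson's r = 0.98, 7 libraries), then Prf1 (0.95) and Klrk1 (0.86), and Gzma (-0.21) and Gzmb (-0.08) did not. Between single members, r was 0.94 for Klrb1c with Klrd1 and 0.92 for Prf1 with Ncr1, and -0.80 for Gzmb with Klrd1. The genes outside the set most like the mean were Gm15800, Atat1, Zfhx2, H2-T24, Cenpj and Espl1, at r from 0.990 to 0.993. These values come from 7 libraries that share genotype and time differences, and are given as descriptions.

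Other genes of NK biology were then set beside the members. The list of other NK receptors and adaptors held 26 tested genes of 34. In wild type 10 of them fell between 90 min and 6 h and none rose, where 6.32% of all genes fell and 4.39% rose. Their median log2 fold change was -0.75, against 0.05 over all genes, and 22 of 26 were below 0. Cd7, an immunoglobulin-family protein of NK and T cells, dropped from 18.03 and 21.50 FPKM to 1.53 and 2.68 FPKM (log2 fold change -2.76, SE 0.31, adjusted p in limma = 0.00191). The receptor chain Klri1 (-1.61, SE 0.31, adjusted p in limma = 0.0142) and the receptor Cd96 (-1.51, SE 0.29, adjusted p in limma = 0.0152) fell too. So did the signalling adaptor Tyrobp (-1.31, SE 0.26, adjusted p in limma = 0.0158). Without 1 of the wild-type 90 min libraries the count was 2 (without replicate 1) or 4 (without replicate 2). The call of Cd96 was lost without either of them (limma adjusted p = 0.0659 and 0.118) and that of Tyrobp without replicate 1 (limma adjusted p = 0.108). In the same comparison 3 of the 10 T cell markers, 3 of the 8 B cell markers, 4 of the 6 red pulp macrophage markers and 5 of the 8 red cell markers fell, with medians of -0.88, -1.09, -1.23 and -1.40, beside the same shares and median over all genes. The red pulp macrophage markers summed to 280 and 296 FPKM in the wild-type 6 h libraries and 512 to 657 FPKM in the other 5. The part of cell composition in the fall of Klrd1 and the other receptors was not tested.

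At 6 h, 3 of these 26 genes were higher in the GdX-deficient library and none was lower, where 2.91% of all genes were higher and 1.05% lower, with a median of 0.93 against 0.32 over all genes. Cd7 stood at 12.80 FPKM in it (log2 fold change 2.18, limma adjusted p = 0.0255), Klri1 at 6.38 FPKM, with 0.42 and 1.16 FPKM in the wild-type pair (2.08, limma adjusted p = 0.0275) and Cd160 at 3.83 FPKM, with 0.57 and 0.72 FPKM there (1.56, limma adjusted p = 0.0422). The Cd160 call was lost with quantile normalization, at a log2 fold change of 0.92 (limma adjusted p = 0.0981), and with no trend (0.0509) or no filter (0.0907). The count was 10 without wild-type replicate 2 at 6 h, where 2272 of all genes were called higher against 331 with it, and 5 without GdX-deficient replicate 2 at 90 min, where 457 were. At 90 min none of the 26 passed in limma, where 0.0176% of all genes did. The smallest p-values were those of Klrc2 (log2 fold change 1.15), Klrg1 (0.56) and Itgam (1.03). Itgam stood at 10.9 ± 7.9 FPKM (SD, n = 2) in the GdX-deficient 90 min libraries. The neutrophil markers of these libraries summed to 977 and 4691 FPKM, and the part of those cells in this value was not tested. With genotype as a covariate, 2 of the 26 were lower at 6 h (Cd7 and Klra8), where 2.65% of all genes were. These calls held in 10 and 8 of 14 alternatives. Many of these receptors belong to families of near-identical copies, so single genes of the Klra and Klrc groups are uncertain.

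**Figure D4:**
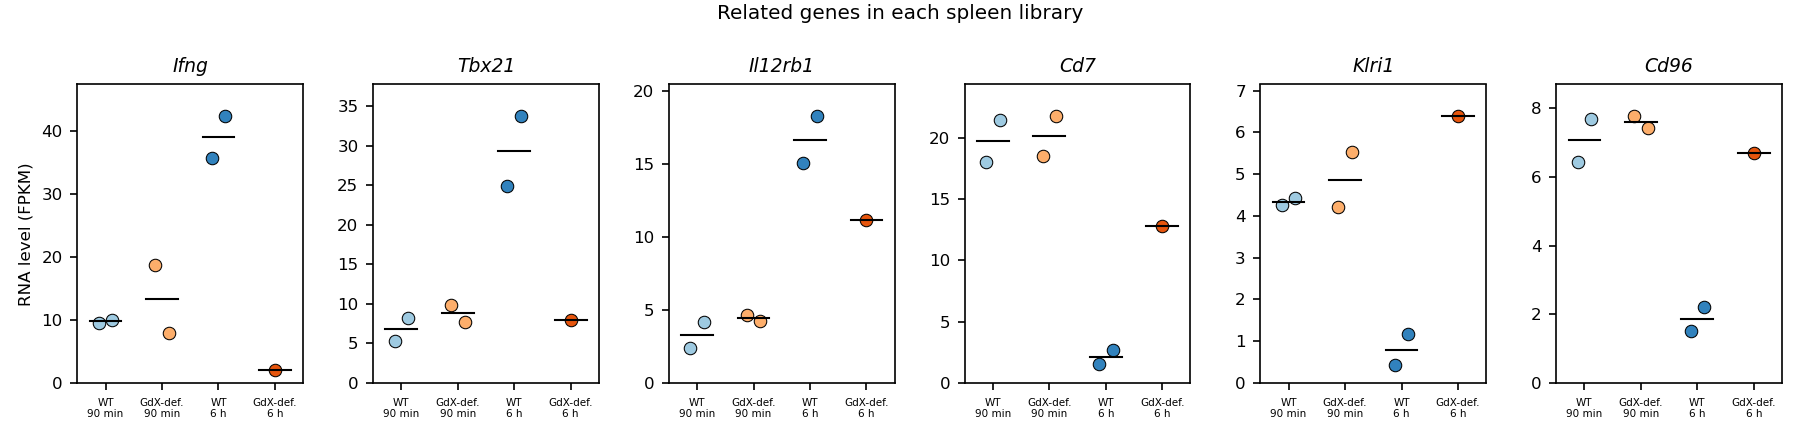
RNA level (FPKM, linear axis from 0) of 6 related genes in the 7 libraries, by genotype and time after LPS. Points are libraries and bars are group means. Ifng and Tbx21 are highest in wild type at 6 h, Cd7, Klri1 and Cd96 are lowest there, and the GdX-deficient 6 h library has the lowest Ifng, at 1.99 FPKM.

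Among 19 tested genes of 26 for granules and killing, 1 rose and 6 fell with time in wild type, where 4.39% of all genes rose and 6.32% fell. The gene that rose was Ifng, the interferon gamma gene, and its 6 h difference between genotypes was opposite in sign to that of Klrd1. In wild type Ifng went from 9.53 and 10.07 FPKM early to 35.79 and 42.32 FPKM late (log2 fold change 1.89, SE 0.38, adjusted p in limma = 0.0167). In GdX-deficient spleen its level was 18.68 and 7.86 FPKM early and 1.99 FPKM late. The wild-type mean at 6 h was 19.6 times the deficient library, and the log2 fold change was -3.74 (SE 0.46, adjusted p in limma = 0.0082). The difference of the genotype effects between the times was -4.03 (SE 0.60, adjusted p in limma = 0.0626). The genes that fell in wild type included the chemokines Ccl4 (-3.24, limma adjusted p = 0.00873) and Xcl1 (-1.78, limma adjusted p = 0.01), the granule protease Ctsw (-1.50, limma adjusted p = 0.0148) and the granzyme inhibitor family gene Serpinb6b (-1.30, limma adjusted p = 0.0305). The call of Ctsw was lost without either wild-type 90 min library (limma adjusted p = 0.0996 and 0.0553). That of Serpinb6b was lost without any 1 of the wild-type 90 min libraries, the GdX-deficient 90 min libraries or wild-type replicate 1 at 6 h (limma adjusted p from 0.0501 to 0.107). With genotype as a covariate 4 of the 19 were lower at 6 h, where 2.65% of all genes were (Ctsw, Stx11, Ccl4 and Xcl1), and the calls of Ccl4 and Xcl1 held in all 14 alternatives, that of Stx11 in 10 and that of Ctsw in 7.

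Of 20 tested transcription factors and residence genes of NK cells (of 22), 1 rose and 2 fell with time in wild type. Of all genes, 4.39% rose and 6.32% fell. Between the genotypes at 6 h none was higher and 1 was lower, where 2.91% of all genes were higher and 1.05% lower. The gene that rose, and the 1 that was lower, was Tbx21, which encodes T-bet, the T-box factor that acts with Eomes. It went from 5.30 and 8.26 FPKM early to 24.92 and 33.72 FPKM late in wild type (log2 fold change 1.97, SE 0.32, adjusted p in limma = 0.00766). In GdX-deficient spleen it gave 9.85 and 7.73 FPKM early and 8.01 FPKM late, and the genotype difference at 6 h was -1.74 (SE 0.39, adjusted p in limma = 0.0456). Without either GdX-deficient 90 min library that call was lost, with adjusted p of 0.0547 and 0.054. Eomes, by contrast, overlapped between times in wild type and was not lower in the deficient 6 h library. The chemokine receptor Cx3cr1 (-1.03, limma adjusted p = 0.0375) and Stat4 (limma adjusted p = 0.0462), which transmits the IL-12 signal, fell in wild type, and the Stat4 mean at 90 min was 2.03 times that at 6 h. These calls held in 8 of 14 alternatives for Cx3cr1 and 7 of 15 for Stat4. Both were lost without either wild-type 90 min library, Cx3cr1 also without wild-type replicate 2 at 6 h, and Stat4 also without wild-type replicate 1 at 6 h or either GdX-deficient 90 min library (adjusted p from 0.0508 to 0.141 and from 0.0533 to 0.259 in limma).

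Of the cytokines that activate NK cells and their receptors (14 tested of 16), 1 rose and 1 fell with time in wild type. Of all genes, 4.39% rose and 6.32% fell. The IL-12 receptor chain Il12rb1 rose in wild type (log2 fold change 2.07, SE 0.32, adjusted p in limma = 0.0065). Its level was 2.39 and 4.20 FPKM early and 15.05 and 18.24 FPKM late there, and at 4.68, 4.21 and 11.14 FPKM in GdX-deficient spleen, the last at 6 h. Il12b, the shared chain of IL-12 and IL-23, fell in wild type (-3.79, SE 0.77, adjusted p in limma = 0.017). With genotype as a covariate Il12rb1 was higher at 6 h (1.70, limma adjusted p = 0.0118), and Il12b and Il15 (-0.93, limma adjusted p = 0.0393) were lower. These were 1 and 2 of the 14, where 2.79% of all genes were higher and 2.65% lower. Of the 7 libraries, leaving out any 1 other than wild-type replicate 1 at 6 h ended the call of Il15 (limma adjusted p from 0.0502 to 0.118). No gene of this list passed between the genotypes at 6 h, where 3.96% of all genes did. Of 9 tested ligands of NK receptors (of 15), none passed in any comparison in limma, where from 0% to 10.7% of all genes did. The values with the smallest p at 6 h between genotypes were those of Ulbp1 (0.93, limma adjusted p = 0.103) and Cd48 (0.91).

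**Figure D5:**
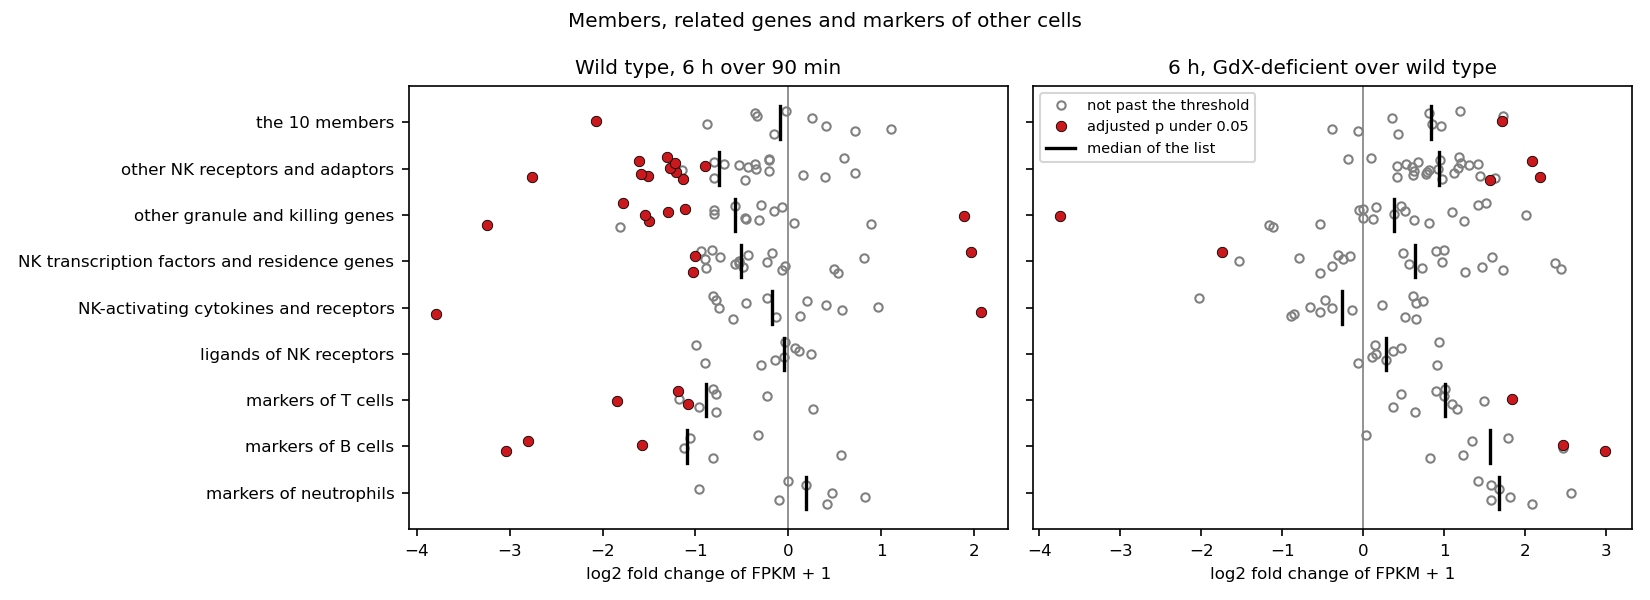
Log2 fold change of FPKM + 1 for the 10 genes, the lists of related genes and markers of T cells, B cells and neutrophils, in wild type over time (left) and between genotypes at 6 h (right). Each circle is a gene, filled where the limma adjusted p is under 0.05, and the bar is the median of the list. NK receptors share the sign of T cell and B cell markers in both panels (medians -0.75, -0.88 and -1.09 on the left), while the 10 genes have a median of -0.10 on the left.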

How the data were processed

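Per the labels' protocols, total RNA from 7 crushed spleens was either selected with oligo-dT or depleted of rRNA (which of these was used is not given in the sources used here) and read on a BGISEQ-500 sequencer. The deposited table holds FPKM, computed by the authors, in a column for each library. The submitters' processing notes name HISAT, HISAT2 2.0.4, Bowtie2 and RSEM and the build GRCm38.p5, with no roles. Groups come from the sample titles.

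Values were converted to log2(FPKM + 1), where the pseudocount of 1 understates the change of low genes. The 11378 of 17920 genes whose mean reached 1 FPKM were fitted in limma 3.58.1 under R 4.3.3, with a trend in the empirical Bayes step. P-values are two-sided, adjusted by the Benjamini-Hochberg method over all genes tested, with a threshold of 0.05. A fit of the 4 groups (3 residual degrees of freedom, 6.36 prior) gave genotype at each time, time in each genotype and the interaction. Additive fits gave genotype and time over all 7 libraries. The script was tested on simulated data. Promoter windows were matched by symbol.

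The 10 genes and all lists were chosen with earlier results of these data known. Named were the 10 genes whatever their values, up to 4 genes past the threshold in each direction of a list (otherwise up to 3 with the smallest p), and the 6 genes most like the mean. Ubl4a and Gm44504 were named outside this rule. The alternatives were another pseudocount, other filters, quantile normalization, no trend, a replicate block, fits of the compared libraries alone and leaving out each library. Removal of the trend with transcript length (length known for 11180 genes tested) and a crossed block were added after seeing the data.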

Additional observations from a re-analysis of the deposited data

How the results depend on the processing

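The fall of Klrd1 in wild type passed in all 15 alternatives (log2 fold change from -2.24 to -1.90). The count of members past the threshold moved in other comparisons. With no filter on low values it was 0 for genotype at 6 h and 0 for time with genotype as covariate, with a mean FPKM of at least 5 it was 0 for genotype at 6 h, and with quantile normalization it was 0 for genotype at 6 h and 2 for time with genotype as covariate (against 1 in each). With the transcript length trend removed it was 3 for time in wild type (Gzma, Klrb1c and Klrd1), 3 for genotype at 6 h (Nkg7, Ncr1 and Klrd1) and 2 for time with genotype as covariate. A fit of the 90 min libraries alone called 1 (Ncr1, limma adjusted p = 0.0487). Leaving out each replicate in turn gave 0 to 1 members for genotype at 90 min, 1 to 2 for time in wild type, 2 to 4 for genotype at 6 h, 0 to 2 for genotype with time as covariate and 0 to 1 for time with genotype as covariate. The 4 members come from the fit without wild-type replicate 2 at 6 h, where 26.7% of all genes were called against 3.96%. Without the only GdX-deficient 6 h library, 3 comparisons could not be fitted.

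With the replicate block the count was 2 for time in wild type, 4 for genotype at 6 h (Ncr1, Prf1, Il2rb and Klrd1) and 0 for time with genotype as covariate. The numbers in the titles did not pair the samples (r of replicate differences -0.12 and 0.08 across genotypes, 0.77 between the wild-type times), and the crossed block at 90 min called 0 members, as did the fit with no block. Of the other NK receptors, 3 were lower over time in wild type with no filter, against 10, and leaving out a library gave 2 to 10. The number higher at 6 h, 3, became 0 with no filter, 1 with a mean of at least 5, 11 with the replicate block, 10 with the length trend removed and 6 in a fit of the compared libraries alone, and leaving out a library gave 3 to 10.

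Of 700 alternative values for the members, 646 kept direction and side of the threshold, 11 lost the call, 28 gained one and 15 changed sign, all without a call. Of 534 for the called related genes, 117 lost the call, 72 of them in time in wild type, and the rest kept it. The sign changes were, for genotype at 6 h, Gzma (0.26 with quantile normalization, 0.08 with the length trend removed) and Eomes (-0.08 with quantile normalization). Leaving out each replicate in turn gave -0.33 to 0.18 for Gzma in that comparison, and -0.05 to 0.91 for Gzmb and -0.33 to 0.38 for Klrd1 in genotype at 90 min. For time in wild type it gave -0.45 to 0.39 for Prf1, -0.45 to 0.12 for Eomes and -0.14 to 0.93 for Il2rb, and for genotype with time as covariate -0.22 to 0.43 for Gzmb and -0.01 to 0.19 for Gzma. Over all genes, calls went from 1218 to 2492 for time in wild type, from 450 to 1229 for genotype at 6 h and from 619 to 1210 for time with genotype as covariate with the length trend removed, and from 450 to 270 for genotype at 6 h with quantile normalization. They were 635, 90 and 104 in those 3 comparisons with no filter, 2345, 3383 and 765 with the replicate block, and 181 for genotype at 90 min (against 2) and 885 for genotype at 6 h in fits of the compared libraries alone. The cause was not tested. Depth limits Ncr1 most, and 1 library at 6 h limits every value there.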
